A study of Mus musculus with 8 samples.

Results

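Interferon beta and the 4 chains of the type I and type II interferon receptors were followed in cultured mouse microglia with and without lipopolysaccharide (LPS). The 5 genes, Ifnb1, Ifnar1, Ifnar2, Ifngr1 and Ifngr2, were taken by name and not by their measured values. All 5 were found by their Ensembl identifiers among the 52636 genes of the table. Microglia are the resident macrophages of the brain, and LPS is a component of the outer membrane of Gram-negative bacteria that they sense through Toll-like receptor 4. The study asked how LPS changes microglia. Wild-type C57BL/6 (C57BL/6N in the methods of the study) primary microglia, shaken off mixed glial cultures of neonatal brains, were kept in medium with 10% fetal bovine serum and 10 ng/ml CSF-1, a growth factor that microglia need. They received vehicle or 5 µg/ml LPS for 24 h, and RNA from 4 libraries per group was sequenced as single-end reads of 50 bases. The labels call the 4 libraries of a group biological replicates but do not say whether they came from separate animals or cultures, so p-values measure the spread between these libraries.

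Interferon beta is a secreted cytokine that macrophages make soon after Toll-like receptor 4 signals through the adaptors TRAM and TRIF to the kinase TBK1 and the transcription factor IRF3. It binds the type I interferon receptor, a pair of the chains IFNAR1 and IFNAR2, which also receives the interferon alpha proteins. Interferon gamma, made mostly by T cells and natural killer cells, binds a separate receptor in which IFNGR1 holds the ligand and IFNGR2 is needed to start the signal. Both receptors work through Janus kinases and STAT transcription factors, the type I receptor through JAK1 and TYK2, with STAT2 and IRF9 among its factors, and the type II receptor through JAK1 and JAK2.

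The 5 genes lie at 3 places in the genome. Positions are those of GENCODE release 21 on the mouse build GRCm38. Ifnb1 (ENSMUSG00000048806) is a gene of 1 exon on the minus strand, at chr4:88522025-88522774. Ifnar2 (ENSMUSG00000022971, chr16:91372783-91405589), Ifnar1 (ENSMUSG00000022967, chr16:91485238-91507441) and Ifngr2 (ENSMUSG00000022965, chr16:91547072-91565623) follow each other on the plus strand, with the gap between Ifnar2 and Ifnar1 measuring 79649 bases and that between Ifnar1 and Ifngr2 39631 bases. Ifngr1 (ENSMUSG00000020009) stands alone at chr10:19591949-19610229, also on the plus strand. No exon of the 5 genes overlapped an exon on the opposite strand. For Ifnar2, 9.46% of the exonic bases were shared with Gm21970 on the same strand, a gene that held 1 count in LPS replicate 3 and 0 in the other libraries.

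Stretches of 120 bases from the promoters of Ifnb1, Ifnar2, Ifngr1 and Ifngr2 are given as a description, from RefSeq on GRCm38.p6. Their part in the changes was not tested. All 5 genes had a promoter in that table. The 250 bases before each start were searched on both strands for 4 motifs. The interferon-stimulated response element (ISRE), searched as GAAANNGAA, is bound by STAT and IRF complexes and was present in 7.13% of 32851 promoters. The gamma-activated site (GAS), searched as TTCNNNGAA, is bound by STAT dimers, reads the same on both strands and was present in 7.02%. The kB site, searched as GGAAANTCC, is bound by NF-kB and was present in 1.07%, and the TATA box, searched as TATAAA, in 12.4%. Capitals mark the matches, and each stretch reads 5′ to 3′ on the strand of its gene.
Ifnb1, chr4:88522845-88522964, minus strand, a kB match and a TATA box: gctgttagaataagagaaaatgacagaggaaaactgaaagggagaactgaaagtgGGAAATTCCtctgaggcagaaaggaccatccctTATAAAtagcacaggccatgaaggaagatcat
Ifnar2, chr16:91372533-91372652, plus strand, a GAS match: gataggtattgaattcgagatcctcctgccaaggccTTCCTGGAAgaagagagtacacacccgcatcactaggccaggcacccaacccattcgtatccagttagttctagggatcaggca
Ifngr2, chr16:91546939-91547058, plus strand, a kB match: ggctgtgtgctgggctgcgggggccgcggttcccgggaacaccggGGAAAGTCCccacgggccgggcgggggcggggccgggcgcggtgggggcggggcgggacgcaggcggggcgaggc
Ifngr1, chr10:19591829-19591948, plus strand, no match: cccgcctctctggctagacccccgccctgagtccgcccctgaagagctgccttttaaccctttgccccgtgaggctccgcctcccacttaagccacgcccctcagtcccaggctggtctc

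The matches describe letters only. The kB match of Ifnb1 lay 115 to 107 bases before the RefSeq start and that of Ifngr2 75 to 67 bases before it. Ifnb1 had a second TATA box match, 210 to 205 bases before the start and outside the stretch shown. The GAS match of Ifnar2 lay 214 to 206 bases before its start. None of the 4 motifs was found in the windows of Ifnar1 and Ifngr1, and no member held the ISRE in the letters searched. These letters fix the spacing between GAAA and GAA, and other spacings, which the Ifnb1 stretch holds, were not searched. The lack of a match therefore does not mean that a site for IRF factors is absent.

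The libraries held between 20071921 and 30604447 counts. Levels are given as CPM, the counts of a gene scaled to a fixed library size after TMM normalization, which scales libraries so that the bulk of genes stays level, and per-gene changes as log2 differences, LPS minus vehicle, from edgeR's quasi-likelihood test with Benjamini-Hochberg adjustment over 13847 tested genes. An adjusted p under 0.05 is a call. The summed level of 10 microglial markers ran from 9129 to 12909 CPM in vehicle and from 2169 to 2882 CPM after LPS, and 9 of the 10 were called lower. The other, Aif1, averaged 126 CPM in both groups (edgeR, adjusted p = 0.993) and had a log2 difference of -0.66 under library totals. In bulk RNA, fewer cells of a type and less RNA per cell cannot be told apart. Summed CPM after LPS was higher for markers of endothelial cells (31.1 to 73.5 in vehicle, 163 to 254 after LPS, 3 of 6 genes tested and Cldn5 at 0 in every library) and of fibroblasts (0.497 to 3.52, then 5.30 to 21.3, 1 of 2 tested genes called higher). The endothelial sum rested mostly on Flt1 (means of 48.6, then 165 CPM) and Pecam1 (2.60, then 52.3 CPM). Tek and Esam had no more than 3 counts in any library. The fibroblast sum rested mostly on Dcn, with a mean of 0.136 CPM in vehicle and 8.90 CPM after LPS. Lum also had a higher mean after LPS (0.0396, then 0.545 CPM) but was under the filter. Col1a1 (0.530, then 0.0954 CPM), Col1a2 (0.392, then 0.0272 CPM) and Pdgfrb (0.684, then 0.329 CPM, not called) had lower means after LPS. The sum was lower for the oligodendrocyte lineage (97.5 to 152, then 23.2 to 30.2, 4 of 7 tested genes called lower) and overlapped for astrocytes (20.5 to 46.6, then 41.0 to 124) and neurons (8.15 to 23.6, then 3.12 to 11.5). Of the astrocyte markers, Gja1 was called higher (0.873, then 48.6 CPM) and Gfap, Aqp4 and Aldh1l1 lower, and of 6 tested neuron markers 4 were called lower. T and NK cell markers summed to 2.73 to 7.14 CPM, then 0.381 to 0.838 CPM, with 7 of the 8 genes at no more than 3 counts in any library, and plasmacytoid dendritic cell markers to 0.852 to 2.70 CPM, then 0.708 to 1.20 CPM. The part of these markers in the receptor values was not tested.

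Ifnb1 was at the edge of detection in both groups. The 4 vehicle libraries held 6, 6, 7 and 2 counts of Ifnb1, and the 4 LPS libraries 0, 9, 15 and 3. Both the lowest and the highest value were in the LPS group, and the groups overlapped. On the CPM scale Ifnb1 averaged 0.178 ± 0.0714 in the vehicle group and 0.338 ± 0.316 in the LPS group (SD, n = 4 each). The gene did not pass the filter on low counts, so it was compared by a two-sided exact permutation test over the 70 divisions of the 8 libraries, in which the mean of log2(CPM + 0.5) was 0.23 higher after LPS with p = 0.514. Without the filter, edgeR gave a log2 difference of 0.91 (95% interval -0.74 to 2.56, Benjamini-Hochberg adjusted p = 0.369). A difference of Ifnb1 was not detected at 24 h, and the few counts and the spread between LPS libraries limit the comparison. Earlier times were not part of these libraries.

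The other interferons were nearly absent from the counts. Of 20 listed ligand genes, which were the interferon alpha genes, Ifnab, Ifne, Ifnk, Ifnz, Ifng, Ifnl2 and Ifnl3, 17 had 0 counts in all 8 libraries. A count of 0 allows up to 3 counts, a level of 0.0980 to 0.149 CPM of the library total depending on the library, and this limit covers counting error only. The other 3 held 7 counts in all, with Ifnab at 4 counts and Ifnk at 2 in LPS replicate 3 and Ifna4 at 1 in LPS replicate 1. Ifng, the ligand of the IFNGR chains, was among the genes at 0.

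**Figure D1:**
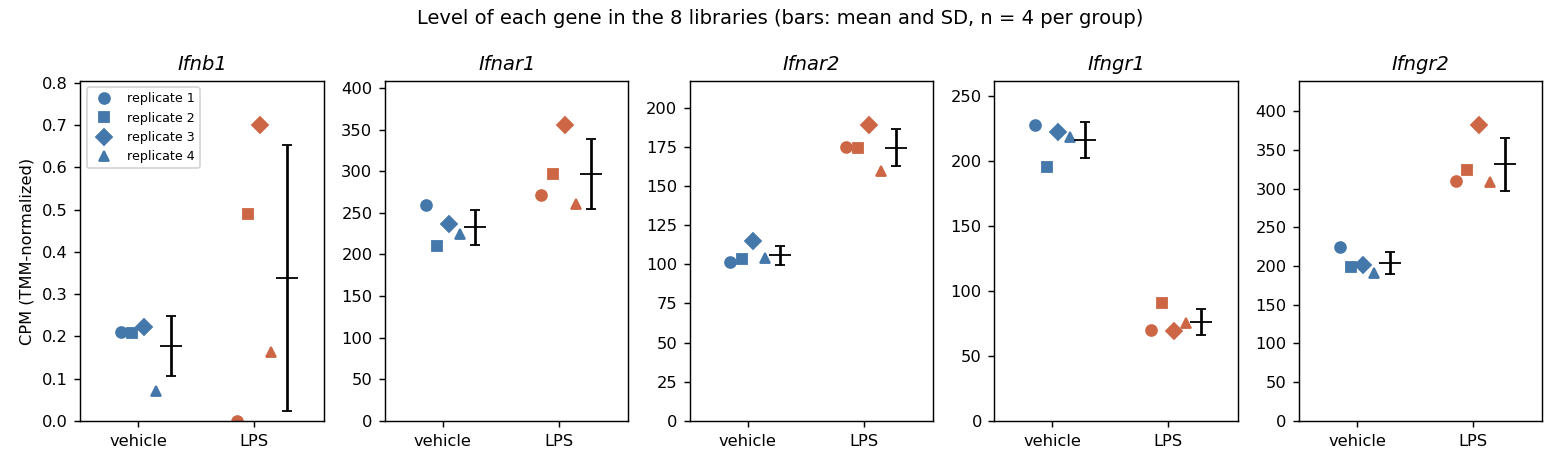
Level of each of the 5 genes (y axis, TMM-normalized CPM, linear from 0, own scale per gene) in the 4 vehicle (blue) and 4 LPS (orange) libraries, with the marker shape giving the replicate number and bars the mean and SD. Ifnb1 stays below 1 CPM in all 8 libraries with overlapping groups, Ifngr1 falls from between 196 and 228 CPM to between 69.0 and 91.1 CPM, and Ifnar1, Ifnar2 and Ifngr2 are higher after LPS on this scale, whereas with library totals alone the difference of Ifnar1 is below 0 and those of Ifnar2 and Ifngr2 are near 0.

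All 4 receptor genes were well measured, with between 1168 and 8185 counts per library. Under TMM each was called, Ifnar1, Ifnar2 and Ifngr2 higher and Ifngr1 lower after LPS, whereas under library totals Ifnar1 was called lower and Ifnar2 and Ifngr2 were not called. Among all tested genes 30.3% were called higher and 33.8% lower, 64.1% in either direction, so a call by itself does not set a member apart.

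Ifngr1, the ligand-binding chain of the interferon gamma receptor, fell after LPS. Its level was 228, 196, 223 and 219 CPM in vehicle replicates 1 to 4 and 69.9, 91.1, 69.0 and 75.1 CPM in the LPS replicates. Every LPS library was below every vehicle library by a wide margin, a separation in this direction that 31.5% of tested genes also had. The mean went from 216 ± 14.1 CPM to 76.3 ± 10.2 CPM (SD, n = 4), a level 2.84-fold lower, and edgeR gave a log2 difference of -1.50 (SE 0.12, 95% interval -1.77 to -1.24, Benjamini-Hochberg adjusted p = 4.90e-06). Of the tested genes, 15.3% had a lower difference than Ifngr1. The fall was called under every scaling, filter and tool tried, and without each library in turn.

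Ifngr2, its signaling partner, moved the other way on this scale. Vehicle libraries held 224, 198, 201 and 192 CPM of Ifngr2 and LPS libraries 310.2, 325, 382 and 309 CPM. The lowest LPS library was above the highest vehicle library, as in 28.7% of tested genes. The mean rose from 204 ± 14.2 to 331 ± 34.4 CPM (SD, n = 4), a 1.63-fold higher level, with a log2 difference of 0.70 (SE 0.11, 95% interval 0.45 to 0.95, edgeR Benjamini-Hochberg adjusted p = 0.000424). Scaled by library totals alone, the log2 difference of Ifngr2 was 0.02 (edgeR, adjusted p = 0.866), and the groups overlapped on that scale.

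Ifnar2, the chain of the type I receptor that binds interferon most tightly, rose by a similar factor. It stood at 101, 103, 115 and 104 CPM in vehicle and at 175, 174, 189 and 160 CPM after LPS. The groups did not overlap, as in 28.7% of tested genes in this direction. The mean rose from 106 ± 6.00 to 174 ± 11.8 CPM (SD, n = 4), 1.65-fold, with a log2 difference of 0.72 (SE 0.095, 95% interval 0.51 to 0.93, edgeR Benjamini-Hochberg adjusted p = 0.000123). Here too scaling by library totals gave a value near 0, a log2 difference of 0.04 (edgeR, adjusted p = 0.658), and the groups overlapped on that scale.

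Ifnar1, the other chain of the type I receptor, had the smallest difference of the 4 receptor genes under TMM but not under library totals, where its direction turned. Vehicle libraries held 260, 210, 236 and 225 CPM of Ifnar1 and LPS libraries 271, 297, 355 and 261 CPM. The groups did not overlap, as in 28.7% of tested genes in this direction, but vehicle replicate 1 and LPS replicate 4 nearly met. The mean was 233 ± 20.8 CPM in vehicle and 296 ± 42.1 CPM after LPS (SD, n = 4), 1.27-fold higher, and the log2 difference was 0.35 (SE 0.13, 95% interval 0.06 to 0.64, edgeR Benjamini-Hochberg adjusted p = 0.0376). The call was lost without vehicle replicate 2 (edgeR, adjusted p = 0.0660), vehicle replicate 4 (0.0578), LPS replicate 2 (0.0718) or LPS replicate 3 (0.0542), and the sign turned under library totals, to -0.34 (edgeR, adjusted p = 0.0115).

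The scaling matters for the direction because the bulk of genes moved with it. The median log2 difference of all tested genes was -0.11 under TMM and -0.79 under library totals, a shift of -0.68, and the share of all calls that were higher went from 47.2% to 19.0%. The TMM factor of a vehicle library was between 1.21 and 1.32 and that of an LPS library between 0.701 and 0.833. A change of scaling moves all genes by about the same log2 amount, so the distance from the median gene is by construction nearly the same under each and is given as a description. Ifnar2 was 0.83 above the median gene on the log2 scale under both scalings, Ifngr2 was 0.81 above it under both, and Ifnar1 was 0.46 above it under TMM and 0.45 under library totals. Ifngr1 was 1.39 below it under both, as its difference from the median was -1.39.

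**Figure D2:**
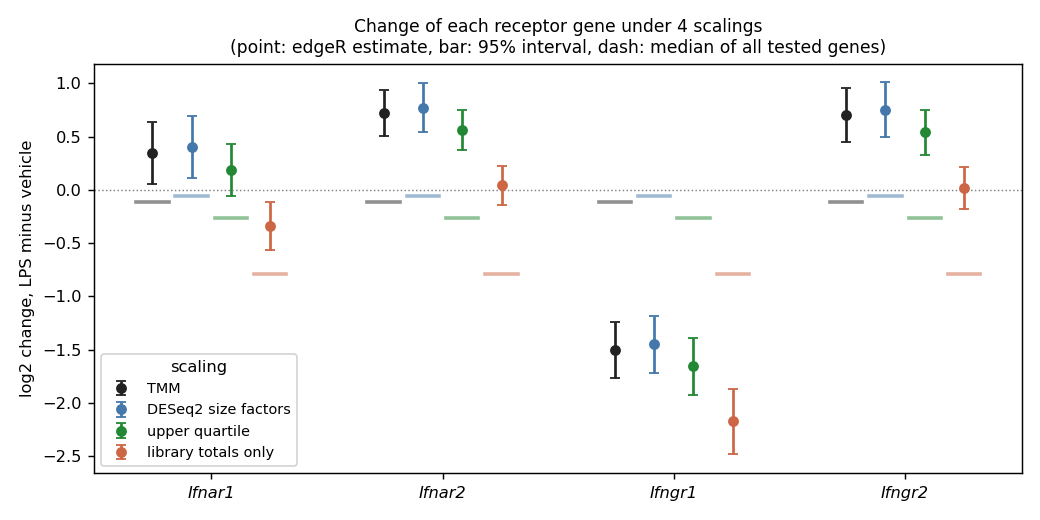
Log2 difference, LPS minus vehicle (y axis), of the 4 receptor genes under 4 scalings (colors), as edgeR estimates with 95% intervals (bars), and the median of all 13847 tested genes under the same scaling (dashes). From TMM to library totals the median moves from -0.11 to -0.79 and each gene moves along with it, so Ifnar1 goes from 0.35 to -0.34 and Ifnar2 and Ifngr2 come to lie at 0.04 and 0.02, while Ifngr1 stays below 0 under all 4.

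The chains of 1 receptor can be compared inside each library, where no scaling enters. The ratio of Ifngr1 to Ifngr2 counts was 1.02, 0.989, 1.11 and 1.14 in the vehicle libraries and 0.225, 0.281, 0.181 and 0.243 in the LPS libraries. The chains of the interferon gamma receptor thus had about equal counts in every vehicle library, and Ifngr1 was the rarer one in every LPS library. The mean log2 ratio went from 0.086 ± 0.099 to -2.12 ± 0.27 (SD, n = 4), a difference of -2.21, or a 4.62-fold lower ratio (exact permutation, two-sided p = 0.0286, which is as low as 4 against 4 libraries can give, and the same value, 0.0286, when adjusted for the 2 ratios). Under TMM the groups already separated downward for Ifngr1 and upward for Ifngr2. The ratio therefore had to separate, and this p adds no support beyond those separations. How many other gene pairs separate in this way was not counted. Per base of exonic length, the ratio was 1.41 ± 0.0963 in vehicle and 0.308 ± 0.0549 after LPS.

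The ratio of the type I receptor chains moved by a smaller value, and the difference from the type II ratio was not tested. The ratio of Ifnar1 to Ifnar2 counts was 2.56, 2.03, 2.06 and 2.16 in vehicle and 1.55, 1.71, 1.88 and 1.63 after LPS. The ratio was lower in each LPS library than in any vehicle library, with vehicle replicate 1 the highest of all. The mean log2 ratio went from 1.13 ± 0.15 to 0.76 ± 0.12 (SD, n = 4), a difference of -0.38, or a 1.30-fold lower ratio (exact permutation, two-sided p = 0.0286, also 0.0286 when adjusted for the 2 ratios). Without vehicle replicate 1 the difference was -0.30 and the exact permutation p was 0.0571. Taken as 4 same-numbered pairs, both ratios fell in 4 of 4 pairs, and exact sign flips gave p = 0.125 for each, the smallest that 4 pairs allow.

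**Figure D3:**
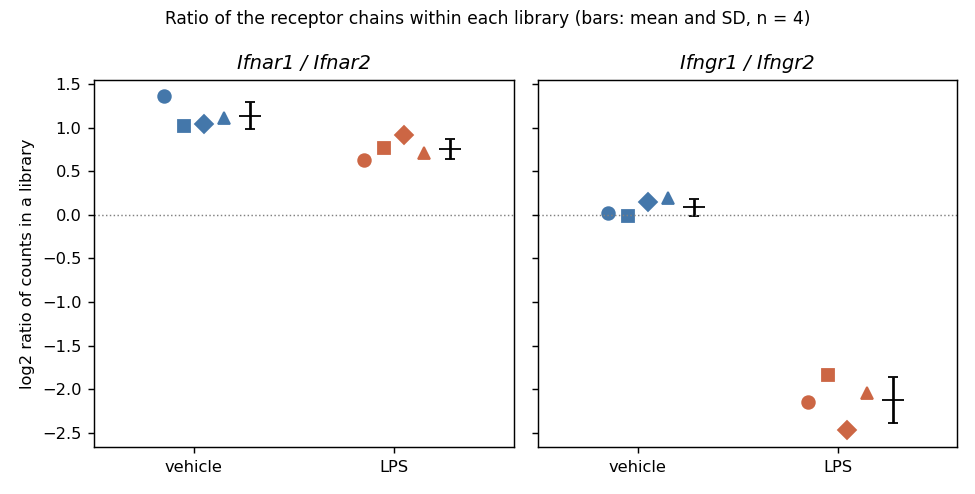
Log2 ratio of the counts of the chains of the type I receptor (left, Ifnar1 over Ifnar2) and of the type II receptor (right, Ifngr1 over Ifngr2) in each of the 4 vehicle (blue) and 4 LPS (orange) libraries, on 1 common y axis, with mean and SD as bars and 0 as equal counts. The type II ratio falls from a mean of 0.086 to -2.12 and the type I ratio from 1.13 to 0.76, with no overlap of the groups in either panel.

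Levels of different genes were compared per kilobase of exonic length. In vehicle, Ifngr1 stood highest at 76.0 ± 4.94 CPM per kb, followed by Ifngr2 at 54.1 ± 3.76, Ifnar1 at 39.2 ± 3.51 and Ifnar2 at 31.8 ± 1.80 (SD, n = 4), while Ifnb1 was at 0.237 CPM per kb. After LPS the order was Ifngr2 at 87.9 ± 9.13, Ifnar2 at 52.4 ± 3.56, Ifnar1 at 49.8 ± 7.08 and Ifngr1 at 26.8 ± 3.59 CPM per kb, and Ifnb1 was at 0.451. Ifngr1 thus went from the highest of the 4 receptor genes to the lowest, and Ifnar1 and Ifnar2 did not differ beyond their spread after LPS. The receptor genes were among the more abundant transcripts of these cells. Among tested genes ranked by CPM per kb, Ifngr1 was at percentile 97.4 in vehicle and 87.4 after LPS, and the other 3 were between 92.5 and 96.1 in vehicle and between 92.9 and 95.8 after LPS. With the length of the longest coding transcript in place of all exons, Ifngr1 was still the highest in vehicle (102 CPM per kb) and the lowest after LPS (36.1 CPM per kb). Ifnar1 then came above Ifngr2 in vehicle, at 59.5 against 55.0 CPM per kb, and above Ifnar2 after LPS, at 75.7 against 57.2, so these orders depend on the length used.

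The rest of the pathway was described from lists of 85 genes, of which 58 were tested. Of these, 47 were called higher after LPS, 1 lower and 10 were not called. Under library totals 37 were called higher and 12 lower, and 37 of the 47 were also called higher on that scale, 2 were called lower and 8 were not called. The background is the same as for the receptor genes, with 30.3% of tested genes called higher and 33.8% lower under TMM. Under library totals 1988 of all 13847 tested genes were called higher and 8457 lower.

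All 6 listed kinases and transcription factors downstream of the receptors were called higher under TMM, with a median log2 difference of 1.59 against -0.11 over all tested genes. Jak2, the kinase that sits on IFNGR2, rose most among them, from 67.4 to 773 CPM (log2 difference 3.52, edgeR Benjamini-Hochberg adjusted p = 1.55e-07). Jak1, which serves both receptors, rose by 0.89 on the log2 scale, a call lost under library totals (0.20, edgeR, adjusted p = 0.0689). Tyk2, which sits on IFNAR1, rose by 0.36, but it was called lower under library totals (-0.31, edgeR, adjusted p = 0.0288) and not called under upper quartile scaling (0.21, 0.105) or without the filter (0.33, 0.0574). The differences of Stat2 and Irf9, whose proteins act together downstream of the type I receptor, were 1.99 and 1.19, and Stat3, which interleukin-6 and interleukin-10 receptors use most, had 2.21.

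Of 8 brakes on the receptors, 6 were called higher, with a median log2 difference of 1.06. Socs3, an inhibitor of cytokine receptors that pair with JAK1, went from 12.5 to 1748 CPM (log2 difference 7.13, edgeR Benjamini-Hochberg adjusted p = 4.01e-07). Socs1, which blocks the kinases of both interferon receptors, went from 1.77 to 24.6 CPM (3.79), and Usp18, which binds IFNAR2 and damps the type I receptor, had a log2 difference of 4.31. The tyrosine phosphatase genes Ptpn2, Ptpn6 and Ptpn11 had 1.58, 0.53 and 0.49, of which the latter 2 turned to -0.13 and -0.19 under library totals. Pias1, an inhibitor of STAT proteins, had -0.27 and was not called (edgeR, adjusted p = 0.130), but it was called lower without LPS replicate 3 (-0.41, edgeR, adjusted p = 0.00615), under upper quartile scaling (-0.43, 0.0112), under library totals (-0.96, 4.36e-05) and with at least 10 counts in every library (-0.33, 0.0435). Also not called was Ptpn1, which codes for a phosphatase of JAK2 and TYK2, at 0.00 (edgeR, adjusted p = 0.983). Under library totals Ptpn1 had -0.65 and was called lower (edgeR, adjusted p = 0.0215).

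The lists also held genes for receptor turnover. Fbxw11, a subunit of the ubiquitin ligase that marks IFNAR1 for removal, had a log2 difference of 1.20. Its relative Btrc had 0.37 (edgeR, adjusted p = 0.0498) and Prkd2, a kinase that prepares IFNAR1 for that step, 0.62, and both were below 0 under library totals, at -0.32 and -0.06. The call of Btrc was lost with a replicate block (0.35, edgeR, adjusted p = 0.0926) and without vehicle replicate 2, 3 or 4 (0.39, 0.39 and 0.41) or LPS replicate 2 or 3 (0.40 and 0.23). It was also lost under upper quartile scaling (0.20, edgeR, adjusted p = 0.196), without the filter (0.34, 0.126) and with at least 10 counts in every library (0.31, 0.0714), and under library totals Btrc was called lower (0.0419). Stub1, a ubiquitin ligase that has been tied to IFNGR1, had -0.62 and was not called (edgeR, adjusted p = 0.127), whereas under library totals it had -1.26 and was called lower (edgeR, adjusted p = 0.0122).

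Among 15 genes that lead from Toll-like receptor 4 to Ifnb1, 9 were called higher, 1 lower and 5 were not called, with a median log2 difference of 0.82. The gene that was lower was Tlr4 itself, the LPS receptor, at 192 ± 11.9 CPM in vehicle and 85.0 ± 43.1 CPM after LPS (SD, n = 4; log2 difference -1.17, SE 0.28, edgeR Benjamini-Hochberg adjusted p = 0.00487). Its LPS libraries held 55.5, 74.4, 149 and 61.7 CPM, so replicate 3 stood apart from the rest but still below the lowest vehicle library, at 178 CPM. The adaptor genes Ticam1 and Ticam2 had differences of 1.21 and 1.31, the kinase genes Tbk1 and Ikbke 1.61 and 2.41, and Irf7, which codes for the factor that extends interferon production, rose from 360 to 4187 CPM (3.54). Irf3, the first factor to act on Ifnb1, had 0.09 and was not called (edgeR, adjusted p = 0.639). Without LPS replicate 3 it had 0.25 and was called higher (edgeR, adjusted p = 0.0290), whereas under library totals it had -0.57 and was called lower (edgeR, adjusted p = 0.0277).

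Most of the listed genes known to respond to interferon were higher after LPS, with the exceptions in the interferon gamma list. All 12 tested genes of the type I response list were called higher under TMM, with a median log2 difference of 3.48 (2.79 under library totals). Rsad2, which codes for the antiviral enzyme viperin, went from a mean of 278 to 15557 CPM (log2 difference 5.81, SE 0.65, edgeR Benjamini-Hochberg adjusted p = 4.13e-05). Its libraries were spread widely inside each group, from 105 to 488 CPM in vehicle and from 7106 to 28423 CPM after LPS. Isg15, a ubiquitin-like protein gene, and Cxcl10, a chemokine gene, had differences of 3.57 and 5.21 (5.83 for Cxcl10 without vehicle replicate 3), whereas Oasl2 had 0.77 with overlapping groups and was not called under library totals (0.080, edgeR, adjusted p = 0.727).

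Of the 12 genes of the interferon gamma response list, 9 were tested, 8 were called higher and 1 was not called. Their median log2 difference was 3.97 (3.30 under library totals), which leaves out the 3 genes under the filter. The gene not called was Cd74, at 30.9 CPM in vehicle and 26.7 CPM after LPS (log2 difference -0.21, edgeR, adjusted p = 0.585). Under library totals Cd74 had -0.89. Ifng itself had 0 counts in every library, and which signal raised the listed genes was not tested. Cxcl9, a chemokine gene, rose from 1.19 to 485 CPM (log2 difference 8.67, edgeR Benjamini-Hochberg adjusted p = 8.08e-07), and Gbp2, a guanylate-binding protein gene, had 5.25 (5.85 without vehicle replicate 3). H2-Ab1, a chain of the class II antigen-presenting molecule, had a difference of 3.97 at low levels, from 0.462 to 2.87 CPM in vehicle and from 14.8 to 30.8 CPM after LPS. Ciita, the master activator of class II genes, did not pass the filter and went the other way, with 40, 11, 31 and 6 counts in vehicle and 0 in all 4 LPS libraries. Without the filter it was called lower (edgeR, adjusted p = 0.000575), as it was with DESeq2 (adjusted p = 7.57e-06). Of the other class II genes, H2-Aa had 18, 6, 31 and 3 counts in vehicle and 2, 1, 6 and 0 after LPS, H2-Eb1 had 27, 8, 10 and 14, then 7, 8, 11 and 3, and neither passed the filter.

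**Figure D4:**
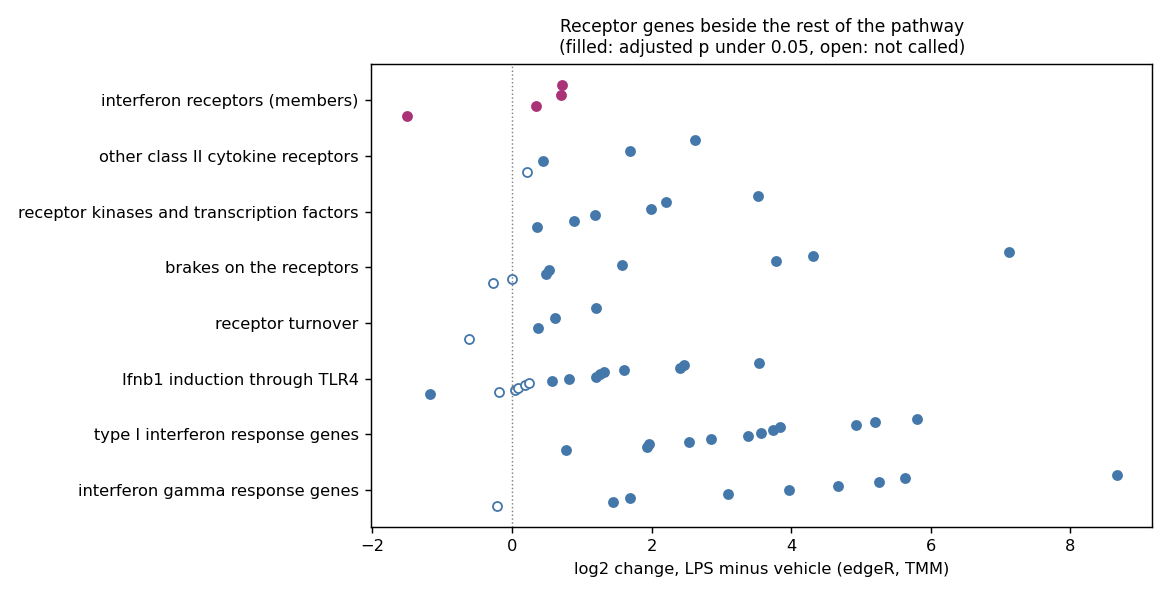
Log2 difference, LPS minus vehicle, under TMM (x axis) of each tested gene of the pathway lists (rows), with the 4 receptor genes on top, filled where the edgeR adjusted p was under 0.05 and open where it was not, and with vertical offsets only to separate points. Ifngr1 at -1.50 and Tlr4 at -1.17 are the filled points below 0 on this scale, and the type I response list has its median at 3.48. Under library totals 12 listed genes besides the receptor genes are called lower, beside 8457 of all 13847 tested genes.

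The closest relatives of the interferon receptors, the other class II cytokine receptors, were sparse. Of 8 such genes, 4 had no more than 3 counts in any library, and of the 4 tested 3 were called higher under TMM. Il10ra, the ligand-binding chain of the interleukin-10 receptor, had a log2 difference of 0.44 (edgeR, adjusted p = 0.0253) and -0.24 under library totals, and its call was lost without vehicle replicate 2 (edgeR, adjusted p = 0.0526) or 4 (0.0570), under upper quartile scaling (0.28, 0.0781) and without the filter (0.41, 0.0544). Il10rb, the shared second chain, starts 575 bases after Ifnar2 ends and is 59404 bases from Ifnar1. It went from a mean of 193 to 225 CPM, with overlapping groups, and its log2 difference of 0.22 was not called (edgeR, adjusted p = 0.227). Under library totals it turned to -0.47 and was called lower (edgeR, adjusted p = 0.00455).

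Neighbors on the chromosome did not share 1 direction. Behind Ifngr2 on chromosome 16, Tmem50b, 8880 bases away, had a log2 difference of 1.43 (edgeR Benjamini-Hochberg adjusted p = 0.000212), Dnajc28 had -2.75 and Gart, a purine synthesis gene, -1.66. Son, a splicing factor gene 81883 bases from Ifngr2, had 0.16 and was not called (edgeR, adjusted p = 0.244). Near Ifngr1, Il22ra2 had 0 counts in all libraries. Near Ifnb1, the genes Ifna15, Ifna14, Ifna9 and Ifna12 were at 0, and Hacd4, 83097 bases away, had -2.39 (edgeR Benjamini-Hochberg adjusted p = 0.00337; -2.98 without LPS replicate 3).

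The genes whose pattern was most like that of a receptor gene were ranked by Pearson correlation of log2 CPM over the 8 libraries, among 10284 genes. This describes the table only, since the points share libraries and scaling and the genes were picked for a high r. Ccndbp1 was closest to Ifnar1 (r = 0.984), Psme2, a proteasome activator gene, to Ifnar2 (r = 0.997), Cerk, which codes for ceramide kinase, to Ifngr1 (r = 0.997), and Dcn, a gene of the fibroblast marker list, to Ifngr2 (r = 0.997). Over the deviations from the group means, r was 0.986, 0.934, 0.897 and 0.970 for these pairs in the same order. An r over 0.9 was common for Ifnar2, Ifngr1 and Ifngr2, which had 2231, 2151 and 2193 such genes, and less so for Ifnar1, which had 245. The counts of Dcn itself were low, with 7, 3, 5 and 1 in vehicle and 79, 124, 416 and 87 after LPS, and their part in the level of Ifngr2 was not tested.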

How the data were processed

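RNA of microglia in 8 libraries, 4 after vehicle and 4 after LPS, was compared. What the authors deposited are raw counts per Ensembl gene of reads with a unique alignment, made with HTSeqGenie 4.30 after alignment with GSNAP to GRCm38, without normalization. The labels name a stranded mRNA kit and a NovaSeq, the paper a TruSeq RNA kit and a HiSeq. The annotation release and the strand setting of the counting are not given in the sources used here, so reads of overlapping genes could be counted differently from what the gene models given here imply. Symbols and exon lengths came from GENCODE release 21, which named 52489 of 52636 identifiers, and identifiers without a symbol held 0.00512% of counts. No 2 libraries were identical.

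Counts were tested with edgeR 4.0.16 (quasi-likelihood F test after TMM, low counts removed by filterByExpr at its minimum count of 10 and total of 15) under R 4.3.3, with Benjamini-Hochberg adjustment over all tested genes and a threshold of 0.05. The fit was run on simulated data with known changes, equal in number up and down, so that run says nothing on the choice of scaling. A gene under the filter, and the ratios of the chains (counts + 0.5), got exact permutation tests in Python 3.11.15 with scipy 1.17.1. Library totals of 20071921 to 30604447 set the precision, and limits from a count of 0 cover counting error only. Shared 50-base windows were counted per gene, and for Ifnar2 7.89% were shared with Gm21970, for the other members no more than 0.824% with any gene.

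Same-numbered libraries deviated together from their group means (r = 0.361, 0.183, 0.183 and 0.130 for replicates 1 to 4 over the 8382 genes whose log2 CPM averaged 3 or more), each over 0.1, so the numbers were treated as pairs in an alternative fit with a replicate block. The labels do not say what a number shares, and for replicates 2 and 4 the exchanged pairs gave 0.154 and 0.141. The members, the pathway and marker lists, the motifs and the comparisons were chosen with earlier results of these data known, and 1 gene of the pathway lists is not reported here. Named genes were the members, genes of the pathway lists, protein-coding genes within 100 kb of a member, and the gene with the highest correlation with each receptor gene, out of 3 listed for each. Alternatives were other scalings (DESeq2 size factors, upper quartile, library totals), no filter, at least 10 counts in every library, DESeq2 1.42.0, a replicate block, and leaving out each library. Lengths of the longest coding transcript, and ISRE and kB letters shorter by 1 than in a first search, were chosen after seeing the data.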

Additional observations from a re-analysis of the deposited data

Results flagged for a closer look

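The level of Ifnb1 in vehicle replicate 4 was flagged as apart from the other vehicle libraries. It was 0.0710 CPM, the lowest of the 4, and its gap to the nearest other library was 0.904 of the range of the group, over Dixon's critical value at the 95% level for 4 samples. The value rests on 2 counts, against 6, 6 and 7 in the other vehicle libraries. The 95% intervals for counting error overlapped, at 0.242 to 7.22 for 2 counts, 2.20 to 13.1 for 6 and 2.81 to 14.4 for 7. The vehicle group of Ifnb1 was 1 of 14 groups of values examined in this way, and chance marks about 1 in 20 groups.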

How the results depend on the processing

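The fall of Ifngr1, from -1.59 to -1.43 when each library was left out, kept its direction and call under every scaling, filter and left-out library tried. The Ifngr1 to Ifngr2 ratio, which no scaling or filter can change, ran from -2.30 to -2.09 and kept its call without each library, as the full separation of the groups fixed. Ifnar2 (0.69 to 0.82) and Ifngr2 (0.63 to 0.78) did so except under library totals, with log2 differences of 0.041 and 0.017. Ifnar1 was the least stable, at 0.25 to 0.43 with each library left out, 0.19 under upper quartile scaling, 0.31 without the filter (adjusted p = 0.109), 0.29 with at least 10 counts in every library (adjusted p = 0.0518) and -0.34 under library totals. The Ifnar1 to Ifnar2 ratio ran from -0.43 to -0.30 with each library left out. Ifnb1 passed no test, with 0.03 to 0.45 when each library was left out. With a replicate block the differences were 0.34 for Ifnar1, 0.72 for Ifnar2, -1.51 for Ifngr1 and 0.70 for Ifngr2, all called, while the paired ratios, -0.38 and -2.21, could not go under an exact sign-flip p of 0.125. The block changed no other call of a member, and among the other named genes only that of Btrc. Called genes were 1988 higher and 8457 lower under library totals, and their total ran from 8031 to 9314 with each library left out. Listed pathway genes called lower were 12 under library totals, 2 under upper quartile scaling, without the filter, with at least 10 counts in every library and with DESeq2, and 1 to 3 with each library left out (3 without LPS replicate 3, 2 without vehicle replicate 4 or any other LPS replicate).

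Under library totals the log2 difference turned for Il10ra (-0.24), Il10rb (-0.47), Tyk2 (-0.31), Ptpn1 (-0.65), Ptpn6 (-0.13), Ptpn11 (-0.19), Btrc (-0.32), Prkd2 (-0.061), Irf3 (-0.57), Son (-0.53) and Ccndbp1 (-0.19). Among the pathway genes of these, Il10rb, Tyk2, Ptpn1, Btrc and Irf3 were called lower on that scale. Upper quartile scaling turned Ptpn1 (-0.14), Irf3 (-0.053) and Son (-0.0039). Ptpn1 was also -0.032 without the filter, -0.044 with at least 10 counts in every library, -0.024 with the block and -0.073 to 0.18 with each library left out, and Irf3 was -0.011 without LPS replicate 4. The cause of these turns was not tested beyond the shift of the median gene. Ifnb1 had few counts and a wide spread between LPS libraries, and both limit its comparison. The other ligands had too few counts to compare.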
